A study of Drosophila melanogaster with 6 samples.

Results

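Of 5209 genes measured on the arrays whose only name is a CG number, 61 were lower in heads of flies aged 25 days than in heads of flies aged 2 days by the conditions given next. The genes were chosen by their array values at both ages: a gene was taken when the mean of its 3 young arrays exceeded the mean of its 3 aged arrays by at least 0.8 on the log2 scale, when all young values lay above all aged values, and when its young mean was at least 4.9. They were split by their aged mean into 19 genes that ended below 4.9, called near-complete losses here, and 42 genes that ended at or above it, called partial falls. These conditions used the comparison of the ages itself, so the differences are given as a description, with no test, and the non-overlap of the ages is fixed by the choice. Among all CG-numbered genes 1.17% met the conditions, and among all 11982 genes with a single symbol 1.43% did. The first condition alone was met by 1.94% of all genes, and all young values lay above all aged values at 19.2% of 18769 probe sets. These shares are background for the counts and nothing is read from them.

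The arrays were hybridised with RNA of whole Drosophila melanogaster heads, 3 Affymetrix arrays from young flies (2 days old) and 3 from aged flies (25 days old). All flies had the strain background W* and carried P{GawB}elavC155, a GAL4 enhancer trap in elav through which neurons make the yeast protein GAL4, so the young controls share the driver with the aged flies. The deposited values are log2 RMA expression values, in which 1 unit is a 2-fold step. Neither the sex of the flies nor separate collections for the arrays are given in the labels, so the spread within an age may be in part technical. On the young arrays it also takes in differing levels of tissue markers, given below. With 3 arrays per age the precision is limited. In whole heads, fewer cells of a type and less RNA per cell cannot be told apart.

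A CG number is the identifier that the genome annotation gave to a predicted gene, and a gene keeps it as its symbol until it is named after a mutant, a product or a family. Many such genes encode short secreted proteins, transporters or enzymes that are known only by their resemblance to others. In the first days after eclosion the epidermis of the adult head still lays down inner cuticle beneath the exoskeleton formed in the pupa, so a head at that age holds epidermal cells active in secretion beside neurons, glia, photoreceptors, fat body and muscle.

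Young replicate 2 stood apart from the other arrays, and this touches a few of the CG genes. The 5 measured markers of the male reproductive tract, which a head should lack, had a mean level of 7.38 on that array, against 2.96 and 2.99 on young replicates 1 and 3 and 2.78 to 2.91 on the aged arrays. Of 5 gut markers, 4 were higher there by over 1 than on either other young array, and the list's mean was 8.45 against 5.49 to 5.66 on the other arrays. Among muscle markers 1 of 4 did the same, and among testis markers 2 of 5. Markers of neurons, glia and photoreceptors were present on all arrays, with mean levels of 8.80 to 9.19 for neurons, 9.82 to 10.2 for glia and 12.6 to 12.8 for photoreceptors. Of 7 neuron markers none met the conditions of the 61 genes. With the conditions turned round 1 did, VGlut, at a mean of 6.18 in young and 7.16 in aged heads. Of the muscle markers, 3 of 4 met the same conditions as the 61 genes (Act88F 2.17, Mlc2 1.39, up 1.03). The list's mean level was 7.84 on young replicates 1 and 3, 8.79 on young replicate 2 and 6.56 to 7.10 on aged arrays. The conditions were also met by 2 of 5 gut, 2 of 6 epidermis and trachea and 1 of 5 male reproductive tract markers. The gut markers (alphaTry and Mal-A1) and the male reproductive tract marker (Mst57Da) met them only through young replicate 2. On young replicates 1 and 3 alphaTry read 4.02 and 4.01, beside 3.90 to 3.92 on aged arrays. Mal-A1 read 5.93 and 6.03 there, beside 5.51 to 5.58, and Mst57Da 3.26 and 3.17, beside 2.91 to 3.17. Among glia markers 1 of 6 met the conditions, and among haemocyte markers 1 of 5, where the median difference was -0.60. Of 6 fat body markers none met the conditions. Their mean level ran from 8.32 on young replicate 1 to 10.4 on young replicate 3, beside 8.54 to 8.94 on aged arrays. This list did not move as one. Young minus aged was 1.61 for Yp2, 1.18 for Yp1, 0.55 for fit, 0.24 for Lsp2, -0.01 for Yp3 and -0.07 for apolpp. It holds yolk protein genes (Yp1, Yp2 and Yp3), and the sex of the flies is not given. The part of muscle or fat body in the gene differences was not tested. In 5 pairs of fly control probe sets, the 3' probe sets exceeded the 5' ones. The mean excess was 1.84 to 2.00 on young and 1.39 to 1.60 on aged arrays. Over 21 pairs of spike-in probe sets, which do not come from the flies, it was 0.86 to 0.91 on young and 0.60 to 0.72 on aged arrays. Some transcripts stand in more than 1 pair, and the spike-in pairs did not all move alike. In 1 pair of dap the excess was 2.04 to 2.15 on young and 1.18 to 1.42 on aged arrays. In 1 pair of cre it was 0.22 to 0.27 on young and 0.33 to 0.41 on aged arrays. A technical measure thus also differed between the ages, and its part in the gene differences below was not tested. Over the whole table limma called 1633 of 18769 probe sets lower (8.70%) and 2438 higher (13.0%) in aged heads (Benjamini-Hochberg adjusted), and 1951 lower and 1859 higher once each array was centred on its median.

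**Figure D1:**
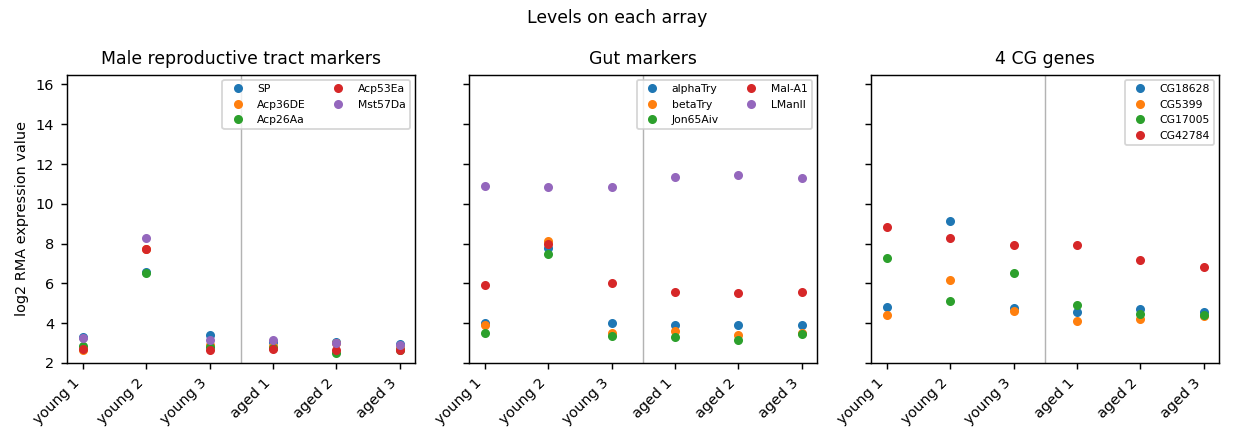
Log2 RMA value on each of the 6 arrays (x axis) for markers of the male reproductive tract and of the gut and for 4 CG genes, one point per array. Markers of both tissues peak on young replicate 2 (except LManII), as do CG18628 (9.11) and CG5399 (6.18), while CG17005 is low there (5.13).

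The widest differences were those of CG7214, CG11458 and CG8736. They went from well-measured levels on all young arrays to levels under the median of all probe sets on all aged arrays. CG7214 stood at 12.46, 12.10 and 12.29 on the young arrays and at 4.09, 4.22 and 4.38 on the aged arrays. CG11458 read 10.87, 10.82 and 10.87 in young heads and 4.76, 4.70 and 4.68 in aged heads. The values of CG8736 were 9.99, 9.25 and 9.82 against 4.86, 4.88 and 4.81, with young replicate 2 the lowest of the young arrays. In each of these genes the distance between the ages was many times the spread within an age, and the lowest young value of CG7214 exceeded its highest aged value by 7.73. The differences were 8.05 ± 0.11, 6.14 ± 0.06 and 4.84 ± 0.18 (log2, young minus aged, ± limma's standard error, n = 3 arrays per age). An aged level below 4.9 lies under the median of all probe sets (4.92), where background makes up much of the signal. The folds from the means may therefore understate the change, at 266-fold for CG7214, 70.5-fold for CG11458 and 28.6-fold for CG8736. They are estimates from 3 arrays per age: without young replicate 1 the difference of CG8736 was 4.68.

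CG18628 and CG5399 are given further below. The 14 other near-complete losses were lower by 0.82 to 2.58, from young means of 4.93 to 7.35. CG7906 was at 7.45, 7.35 and 7.24 in young heads and at 4.84, 4.77 and 4.70 in aged heads, a difference of 2.58 ± 0.08. CG4476, an SLC6-family transporter listed in RefSeq under the synonym DmNAT3, was at 6.78, 6.76 and 6.63 in young heads and at 4.69, 4.70 and 4.63 in aged heads, 2.05 ± 0.07 lower. CG13606 went from 6.68, 6.49 and 6.64 to 4.57, 4.75 and 4.56. These genes had SDs of at most 0.11 within either age, and their young values lay well clear of the aged values. CG13676 read 5.34, 4.9 and 5.57 in young heads against 3.39, 3.22 and 3.31 in aged heads. CG42269, of the organic cation transporter family, read 6.08, 6.02 and 6.15 and then 4.89, 4.80 and 4.63, which is 1.31 ± 0.09 lower. CG17974, of the CAP family of secreted proteins, stood at 5.21, 5.07 and 5.37 and then at 4.0, 3.84 and 3.81. For these, too, the fold may understate the change, and it was 2.48-fold for CG42269 and 2.52-fold for CG17974.

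Several near-complete losses started close to the threshold of 4.9, so that the name describes a small step near the median of all probe sets. CG12880 had young values of 4.96, 4.99 and 4.85 and aged values of 3.92, 4.09 and 3.76. CG8170, a serine protease gene with the RefSeq synonym SP54, had young values of 5.10, 5.09 and 5.38 and aged values of 4.17, 4.33 and 4.09. CG3777, with a difference of 1.42, CG9616, with 0.94, CG8854, with 0.89, CG32037, with 0.87, and CG3713, with 0.82, also had young means under 6. In all, 10 of the 19 near-complete losses had young means between 4.9 and 6, against 1 of the 42 partial falls.

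CG18628 and CG5399 met the conditions only through young replicate 2, the array on which the markers of the male reproductive tract and gut were high. CG18628 read 4.82, 9.11 and 4.76 on the young arrays and 4.57, 4.70 and 4.55 on the aged arrays. Without young replicate 2 its difference was 0.18 in place of 1.62. CG5399, a gene of the lipocalin family, read 4.39, 6.18 and 4.61 against 4.11, 4.23 and 4.35, and its difference of 0.83 became 0.27 without that array. In both genes the other young arrays lay within 0.3 of the highest aged array. CG17005 showed the opposite, with 7.26, 5.13 and 6.50 in young heads and 4.92, 4.44 and 4.39 in aged heads, so that young replicate 2 was its lowest young value and the difference of 1.71 ± 0.48 was 2.30 without it. No other of the 61 genes had a young or aged array over 1 away from the nearest array of its age.

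**Figure D2:**
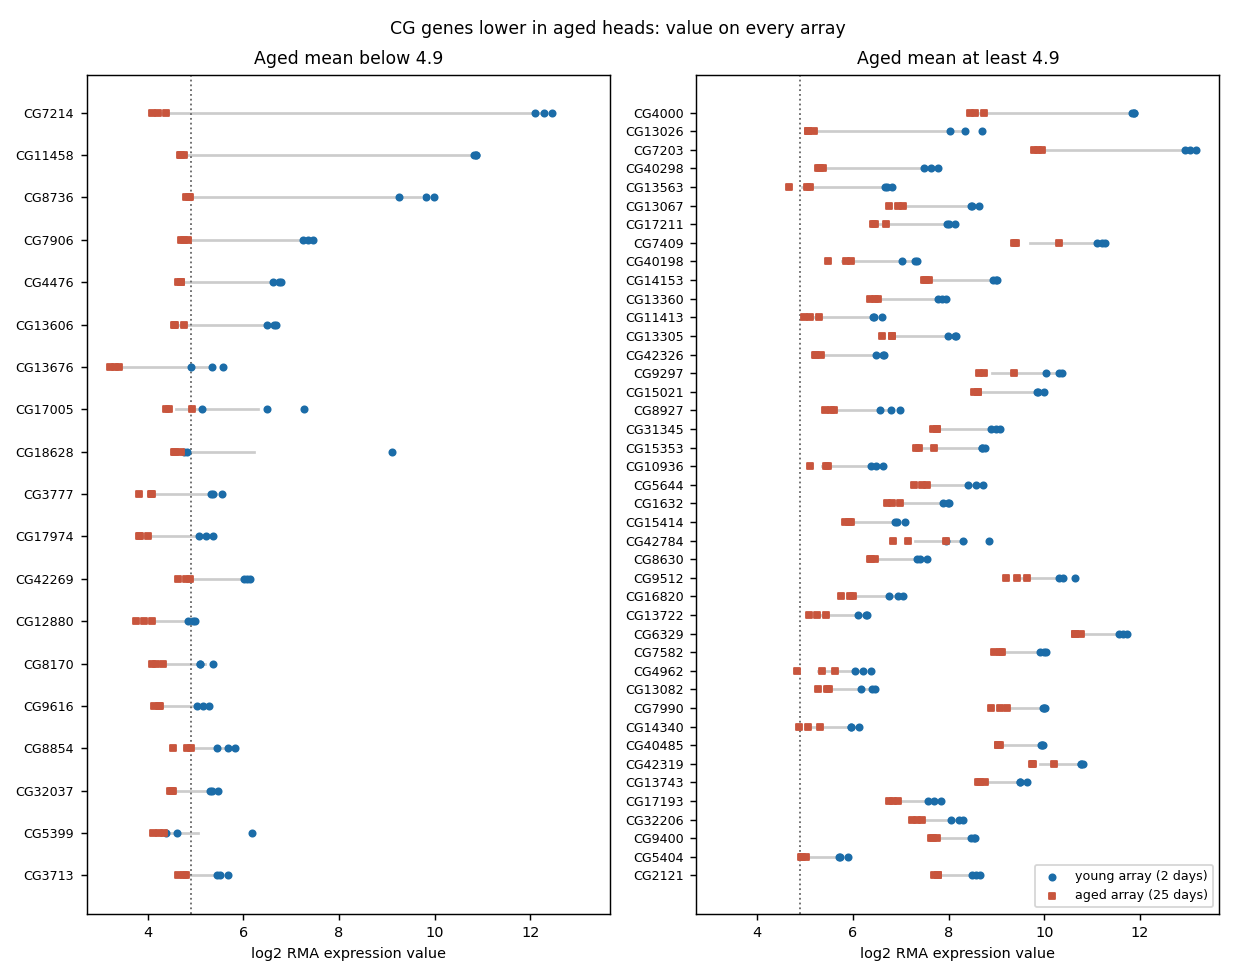
Log2 RMA value (x axis) of each of the 61 genes on each young array (circles) and aged array (squares), with near-complete losses on the left and partial falls on the right, sorted by difference. Grey bars join the means of the ages and the dotted line marks 4.9; CG7214, CG11458 and CG8736 span the widest ranges, and CG18628 and CG5399 have 1 young value far from the others.

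Of the partial falls, 4 were lower by over 2 on the log2 scale. CG13563, CG5404 and CG14340, with aged means of 4.93, 4.96 and 5.08, ended at about the median of all probe sets, so a level above background is not shown for them. CG4000 stood at 11.88, 11.84 and 11.89 in young heads and at 8.55, 8.45 and 8.73 in aged heads, 3.29 ± 0.09 lower or 9.80-fold. CG13026 went from 8.70, 8.34 and 8.03 to 5.18, 5.05 and 5.07, a difference of 3.26 ± 0.16. CG7203 read 13.17, 12.94 and 13.05 and then 9.94, 9.87 and 9.78, which is 3.19 ± 0.08 lower or 9.12-fold. All young values of these genes lay over 2 above their aged values. CG40298 was at 7.63, 7.77 and 7.48 in young heads and at 5.3, 5.27 and 5.38 in aged heads, 2.31 ± 0.09 lower.

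The next partial falls lay between 1.33 and 1.80. CG13563 had 6.71, 6.67 and 6.81 against 5.04, 5.10 and 4.66, and its aged mean of 4.93 put it just above the level that separates the classes. CG13067 was at 8.47, 8.63 and 8.49 in young heads and at 7.05, 6.75 and 6.93 in aged heads. CG17211 was lower by 1.51 ± 0.10 and CG40198 by 1.46 ± 0.14. The tightest of these was CG14153, with 9.01, 8.93 and 8.98 against 7.53, 7.49 and 7.60, a difference of 1.43 ± 0.07. CG13360 was lower by 1.42, CG11413 by 1.36, CG13305 by 1.35 and CG42326 by 1.33. CG9297 stood at 10.30, 10.38 and 10.04 in young heads and at 8.64, 8.75 and 9.36 in aged heads, with aged replicate 3 closest to the young arrays.

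CG7409, a small heat shock protein gene of the alpha-crystallin family, also had aged replicate 3 apart from the other aged arrays. It read 11.27, 11.21 and 11.11 in young heads and 9.40, 9.37 and 10.31 in aged heads. The aged SD of 0.54 was several times the young SD of 0.08, and the difference was 1.5 ± 0.24. Without aged replicate 3 it was 1.81, and without aged replicate 1 or 2 it was 1.36 or 1.34. CG42319, at 10.81, 10.77 and 10.76 and then 9.77, 9.73 and 10.20, had the same array highest among the aged, at a difference of 0.88 ± 0.13.

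Other partial falls with a known family were enzymes, a calcium-binding protein, transporters and secreted or surface proteins, all lower by about 1. Of the enzymes, CG8630, a fatty acid desaturase, was at 7.55, 7.41 and 7.34 in young heads and at 6.46, 6.37 and 6.36 in aged heads, 1.03 ± 0.08 lower. CG9512, of the glucose-methanol-choline oxidoreductase family, read 10.64, 10.30 and 10.39 and then 9.19, 9.42 and 9.63, a difference of 1.03 ± 0.13. CG40485, a short-chain dehydrogenase gene with the RefSeq synonym FOHSDR, had 9.98, 9.95 and 9.92 against 9.03, 9.03 and 9.07. It was among the least variable of the 61 genes, with SDs of 0.03 and 0.02 in young and aged heads. CG31345, with calcium-binding EF hands, was lower by 1.26 ± 0.07 and read 9.08, 8.89 and 8.99 against 7.75, 7.75 and 7.67. CG1632, a serine protease homologue with the synonym SPH198, was at 7.89 to 8.01 in young heads and at 6.82, 6.98 and 6.71 in aged heads. CG13743, a putative amino acid transporter, was lower by 0.87 ± 0.08, CG6329, of the Ly6 family of membrane-anchored proteins, by 0.96 ± 0.08, and CG9400, a CAP-family gene, by 0.83 ± 0.07. In none of these genes did the lowest young value come within 0.6 of the highest aged value.

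Beyond the 15 widest partial falls, the 27 others differed by 0.82 to 1.32, from young means of 5.78 to 11.6 to aged means of 4.96 to 10.7. CG15021, lower by 1.32, was the widest of these, and CG2121 the narrowest. Their ages were apart by 0.42 or more at every gene except CG42784, whose lowest young value (7.95) and highest aged value (7.94) differed by 0.01. CG42784 read 8.85, 8.30 and 7.95 in young heads and 7.94, 7.15 and 6.83 in aged heads, with SDs of 0.46 and 0.57, among the widest spreads of the partial falls in either age. Over all 61 genes, 21 differed by 0.8 to 1, 31 by 1 to 2, 3 by 2 to 3 and 6 by more, and the median difference was 1.26, beside 0.03 over all CG-numbered genes.

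The genes just inside the size threshold were CG5404 (0.82), CG2121 (0.82) and CG3713 (0.82), and those just outside it were CG1136 (0.79), CG14687 (0.78) and CG4462 (0.77). The nearest genes on either side of that line were thus alike. A further 12 genes met the other conditions with a young mean under 4.9, led by CG5653 at 4.85, and CG12374 alone failed by overlap, with 3.67, 7.30 and 3.82 in young heads and 3.56, 3.84 and 3.59 in aged heads. On the line between the classes, CG8736 (aged mean 4.85), CG42269 and CG7906 (both 4.77) lay just below, and CG13563 (4.93), CG5404 (4.96) and CG14340 (5.08) just above. Among the 61, 50 met the conditions whichever array was left out, and 11 did not in at least 1 case. These were CG18628 and CG5399 and 9 genes with differences of 0.82 to 0.94, namely CG2121, CG32206, CG5404, CG17193, CG3713, CG8854, CG42319, CG4962 and CG9400.

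Of the 61 genes, 9 had further probe sets, 10 in all, and most of these differed less than the one that represents the gene. CG6329 was the only gene with a further probe set that met all conditions, at 0.81 beside 0.96. At CG13722 the further probe set differed by 0.67 beside 0.97, and at CG40485 by 0.39 beside 0.91. CG42784 had probe sets at 1.06, 0.34 and -0.23, so its lower level in aged heads rests on 1 of 3 probe sets. The further probe sets of CG42326 (-0.06), CG42269 (0.26), CG3777 (0.18), CG42319 (-0.15) and CG9400 (0.12) were all dim, with young means under 4.4. The RefSeq synonyms of CG42326, CG42269, CG31345, CG42784, CG42319 and CG32206 each hold several other CG numbers, and those of CG32037 and CG2121 hold 1.

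Some of the genes lie near each other in the genome. By gene order in RefSeq Release 6, 5 pairs of the 61 genes lay within 3 places of each other, which takes in 10 genes, and in none of the pairs did the genes overlap. The pairs were CG7214 with CG7203, CG8736 with CG42326, CG18628 with CG14153, CG8170 with CG13743 and CG5399 with CG5404. The differences were 8.05 and 3.19 in the first pair and 4.84 and 1.33 in the second. They were closer in the others, with 1.62 and 1.43 in the third, 0.99 and 0.87 in the fourth and 0.83 and 0.82 in the fifth. Measured genes between them did not show the same difference: ATPsynGL, between CG7214 and CG7203, was at 3.94 and 3.93 in young and aged heads and so dim at both ages, and CG14752, between CG42326 and CG8736, differed by 0.13. Between CG8170 and CG13743, Ance-4 was higher in aged heads, from 8.69 to 9.65, and PPO2, a prophenoloxidase gene, differed by 0.11. In the pairs of CG18628 and of CG5399, 1 member rested on young replicate 2, as given above.

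Another 6 genes that met the same conditions under a name of their own lay within 3 places of one of the 61. Next to CG4000 was Cpr92F, a cuticle protein gene, at 5.48, 4.28 and 5.07 in young heads and at 2.87, 2.91 and 3.18 in aged heads. Next to CG17005 was Cks30A, which encodes a regulatory subunit of cyclin-dependent kinases, at 6.62, 4.66 and 5.97 in young heads and at 3.84 to 4.08 in aged heads. CG17005 and Cks30A thus had the same order of young arrays, with replicate 2 lowest and replicate 1 highest, and their annotated spans did not overlap. Near CG4476 lay Rdl, a GABA receptor subunit gene, which was lower by 0.92, next to CG7582 the guanylyl cyclase gene Gycalpha99B, by 0.89, and near CG8736 rgr, by 0.84. Mur18B, near CG7990, read 5.04, 7.18 and 5.09 in young heads and 4.78 to 4.86 in aged heads, and so stood out on young replicate 2 alone. In all, 15 of the 60 genes with a measured neighbour (25.0%) had at least 1 that met the conditions, beside 5.73% of 5114 CG-numbered genes with a measured neighbour and 22 of the 110 genes with other names that met the conditions. These shares were not tested, and the pairs count from both sides in them. The 15 genes include the pairs of CG18628 and of CG5399, and CG7990 with its neighbour Mur18B. In each of these cases 1 gene met the conditions only through young replicate 2.

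**Figure D3:**
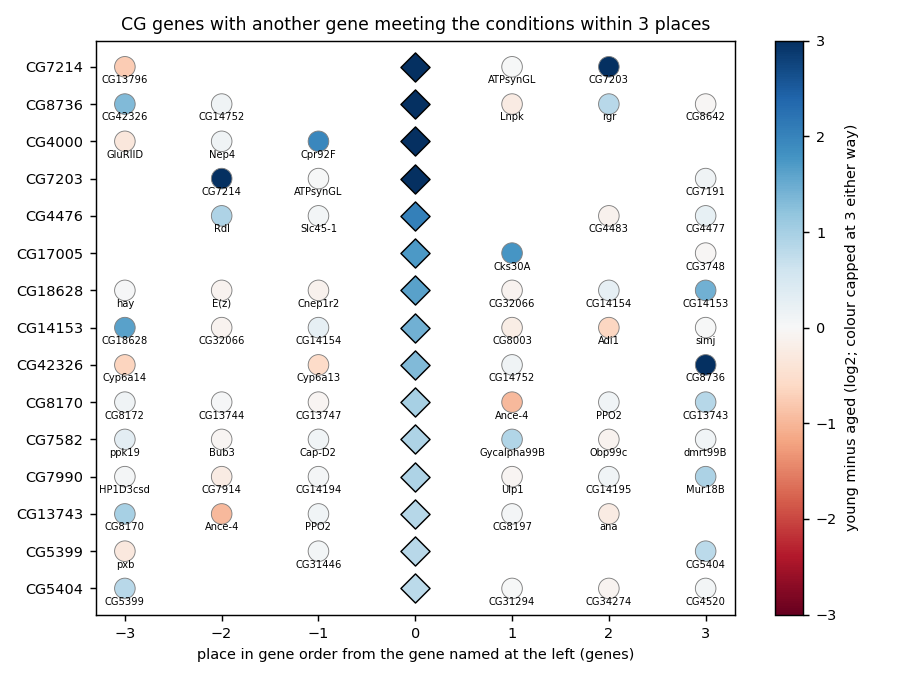
Gene order (x axis, places from the gene named at the left) around the 15 genes that had a neighbour meeting the same conditions, coloured by the difference between young and aged heads on the log2 scale, with blue for lower and red for higher in aged heads and the colour capped at 3. Diamonds mark the gene itself and circles its measured neighbours; most neighbours are pale, such as ATPsynGL between CG7214 and CG7203, while Ance-4 is higher in aged heads.

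The spread within an age is shaped in part by the choice of the 61 genes, since the ages may not overlap, and is given as a description. The median SD over 3 arrays was 0.10 in young and 0.11 in aged heads, beside 0.12 and 0.09 over all CG-numbered genes. Aged replicate 3 was the lowest aged array at 33 of the 61 genes (54.1%), beside 39.4% of all probe sets, and young replicate 1 the highest young array at 29 (47.5%), beside 38.3%. The shifts behind these counts were small: the median deviation from the age mean was -0.04 for aged replicate 3 and 0.03 for young replicate 1. Among the 19 near-complete losses, young replicate 2 was the lowest young array at 12 (63.2%), beside 37.0% of all probe sets, with a median deviation of -0.09. On that array CG8736, CG13676 and CG17005 were at 9.25, 4.9 and 5.13, below both other young arrays.

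Genes of cuticle formation with names of their own were taken as a reference. Of 106 measured cuticle structural genes, 11 met the same conditions, and of 30 genes of chitin synthesis, binding and turnover with the Vajk genes, 10 did, beside 1.43% of all genes with a single symbol. The largest differences on these lists were those of Cpr100A (3.28), Cpr62Bc (2.72) and Cpr49Ae (2.18) among cuticle structural genes and those of Vajk3 (4.11), Vajk2 (3.66) and serp (2.28), a chitin deacetylase gene, among chitin genes. With the conditions turned round (higher in aged heads), 1 cuticle structural gene met them, Cpr66D (young minus aged -0.89), and no chitin gene did. The median difference was small on both lists, 0.15 and 0.36. A young mean of at least 4.9 was reached by 28 of the 106 cuticle structural genes and 17 of the 30 chitin genes. The other genes of these lists could not meet the conditions, and their low levels enter the medians. Of 20 tanning genes, 1 met the conditions, Pu (1.02), which encodes GTP cyclohydrolase, and of 14 genes of the moulting hormone response none did, with medians of 0.16 and 0.14. Markers of the epidermis and trachea had mean levels of 7.21 to 7.42 on the young and 6.57 to 6.62 on the aged arrays, but serp, verm, kkv and knk stand on the chitin list as well, so the lists are not separate. Within the epidermal list serp, verm, kkv and dpy were lower in aged heads by 2.28, 1.30, 0.98 and 0.69, while grh and knk were higher (young minus aged -0.42 for each). Whether the 61 genes are expressed in epidermis was not tested.

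**Figure D4:**
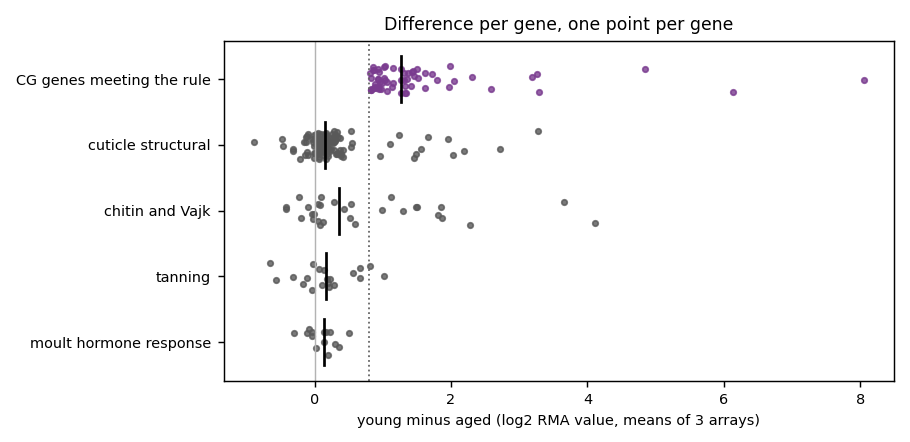
Difference between young and aged heads (x axis, log2, positive where young is higher), 1 point per gene, for the 61 CG genes and for 4 lists of named genes, with a black line at the median of each and a dotted line at 0.8. The CG genes lie to the right of 0.8 by their choice; the lists have medians of 0.14 to 0.36, with single genes out to 4.11.

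Turned round, the same conditions (higher in aged heads by at least 0.8, no overlap, aged mean at least 4.9) were met by 98 CG-numbered genes (1.88%), by 140 genes with other names (2.07%) and by 1.99% of all genes. In the direction of the 61 genes, 110 genes with other names met them (1.62%). Both directions come from the same 6 arrays, and the shares were not tested against each other.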

How the data were processed

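Total RNA of fly heads was measured on 6 Affymetrix arrays. The deposited log2 values are RMA expression values made by the authors, per the submitters' processing notes, which name RMA and limma (their versions: not given in the sources used here). This method scales arrays to a common distribution, so a change in total RNA per head does not show, and differences are compressed near background. The 183 control probe sets were left out. Gene names came from GEO's platform annotation: 402 probe sets had several symbols, 4720 had none here, and neither kind was named. All 61 genes matched RefSeq (Release 6 plus ISO1 MT) by identifier; the table served only for names, synonyms and gene order, and no coordinates are printed because no build was given for the array.

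The conditions were applied to probe sets, and where several of a gene met them the one with the highest mean over 6 arrays was kept (62 probe sets, 61 genes). limma 3.58.1 in R 4.3.3 was fitted to all 18769 probe sets without covariates for the standard errors and the background counts (Benjamini-Hochberg threshold 0.05), and was checked on simulated data. No p-value is given for a chosen gene. Genes, lists and conditions were chosen with earlier results of these data known. The genes named with values are all near-complete losses, the 15 widest partial falls, those nearest the thresholds, neighbours of each other, and those with a discordant probe set; CG15021, CG42784 and the partial falls with a known family were chosen after their values were seen. Replicate numbers are shared by the ages. Deviations from the age means correlated at 0.10, -0.02 and -0.06 in same-numbered arrays and at -0.09 to 0.08 in the others. No pairing was used in the main fit, and these values cannot decide whether same-numbered arrays were handled together. Alternatives covered normalization, probe set choice, thresholds, fit settings and leaving out each array.
Protein and promoter sequences were not analysed here.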

Additional observations from a re-analysis of the deposited data

How the results depend on the processing

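The count of 61 moved to 103 with a fall of at least 0.6 and to 40 with a fall of at least 1.0. Under the other normalizations, probe set choices and floors it lay between 53 and 73, and with single arrays left out between 59 (without young replicate 2) and 69 (without young replicate 1). The 19 near-complete losses became 31 with no floor on the young mean, 11 with a floor of 5.5 and 9 with an aged mean below 4.5 as the limit, and 18 to 23 with single arrays left out. The median difference of the 61 genes (1.26) lay between 1.13 and 1.31 in all alternatives run, and between 1.22 and 1.26 with arrays left out. Averaging all probe sets of a gene removed 7 genes, CG3777, CG40485, CG42269, CG42319, CG42326, CG42784 and CG9400; choosing the probe set before applying the conditions removed CG42784 alone.

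limma's count of lower probe sets (1633) was 925 without aged replicate 1 and 972 without aged replicate 2, the lowest, and reached 1659 without young replicate 2; these fits hold fewer arrays. With the replicate number as a block (replicate block) it was 1311. No direction reversed among the 40 genes named by the rule in any alternative run. The lowest share of a named gene's difference that remained was 0.11, for CG18628 without young replicate 2. The cause of these changes was not tested. Levels near 4.9 carry much background, and without detection calls the near-complete losses cannot be told from absence.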

Other observations

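Beyond genes with a single CG number, 4 probe sets that carry several gene symbols met the same numeric conditions, 2 of them with a CG number among the symbols, and so did 17 probe sets with no symbol in the table used here. They are counted here and were not named.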
